A study of Homo sapiens with 59 samples.

Results

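The DNA replication machinery was followed through the promoters of 51 of its genes, among those of 20007 protein-coding genes, in NCI-H661, a cell line long established from a human large cell carcinoma of the lung. The genes were taken by name as a fixed list, with no measured value used as a rule, although earlier results of these data were known. All 51 of the listed symbols were found in the annotation. They comprise the origin recognition complex (ORC1 to ORC6), the licensing factors CDC6 and CDT1 with the CDT1 inhibitor geminin (GMNN), the replicative helicase MCM2 to MCM7, and the factors that activate it (CDC45, GINS1 to GINS4, CDC7, DBF4 and MCM10). The list goes on with primase and its partner (PRIM1, PRIM2, POLA2), the subunits of polymerases delta (POLD1 to POLD4) and epsilon (POLE, POLE2, POLE3, POLE4), and the single-stranded DNA binding complex (RPA1 to RPA3). The sliding clamp PCNA and its loaders RFC1 to RFC5, the Okazaki fragment enzymes FEN1 and LIG1, the fork factors TIPIN, TIMELESS and WDHD1, the nucleotide reductase subunits RRM1 and RRM2, and topoisomerase TOP2A complete it.

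Replication starts from origins that are bound by the origin recognition complex and loaded with the MCM2-7 helicase by CDC6 and CDT1, before the kinase CDC7-DBF4 and the CDC45-GINS complex switch the helicase on. Most of these genes are transcribed as cells enter S phase, many of them under E2F factors, and their promoters are typically CpG-rich and active in dividing cells. H3K4me3 and H3K27ac are histone marks of active promoters. H3K27me3 and H2AK119ub are deposited by the Polycomb complexes PRC2, of which SUZ12 is a subunit, and PRC1.

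In the knockdown experiment, cells carried doxycycline-inducible miR30-type short hairpins. Line shDPPA2 targeted DPPA2, line shDPPA4 targeted DPPA4, and shDPPA2+4, made from shDPPA2 cells, targeted both genes, each line being a stable bulk population. For 7 days they were given water (H2O) or doxycycline (DOX) at 2 µg/ml, so that both arms of a line carried the same hairpin and a line with a neutral hairpin was not analysed here. ChIP-Rx-seq, which is ChIP-seq with mouse chromatin added as a reference, gave H3K4me3 in replicates 1 and 2 and both Polycomb marks in replicates 1 and 3. In the inhibitor experiment, parental cells were kept for 1 day in DMSO or in 10 µM A-485, an inhibitor of the p300 and CBP acetyltransferases. The libraries of that experiment were replicates 2 and 4 for H3K27ac, 3 and 4 for H2AK119ub, 2 to 4 for H3K27me3 and, without the inhibitor, replicate 3 for SUZ12. Expression was not measured in these files, so the knockdown itself could not be checked. The labels number the replicates without naming separate cultures, while the study describes the ChIP-seq replicates of the knockdown lines as biological. The p-values reflect only how far these samples differ, which may in part be technical.

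Peak lists, one for each of 51 libraries, were the data. A promoter was the window of 1500 bp on each side of the canonical transcription start site (TSS), and it was called marked where at least 300 bp lay under peaks with a log2 fold over input above 1 and an FDR under 0.05. Reads inside such peaks numbered 8394879 to 19379794 per H3K4me3 library, 1330926 to 4136521 per H2AK119ub library of the knockdown lines and 603895 to 5647079 per H3K27ac library. Libraries that stood apart bear on what follows. The DOX H2AK119ub libraries of replicate 3 held 70729 to 93106 filtered peaks, against 40041 to 56402 in the other 9 of the knockdown lines, yet the windows of the 51 genes took only 0.00752 to 0.0172% of their peak reads, against 0.0444 to 0.0822% in the others. The libraries labelled H3K27ac DMSO replicate 4 and A-485 replicate 4 were each called against the input of the other treatment. At 118 peaks with the same borders, the input counts of DMSO replicate 4 and A-485 replicate 2 were equal in 100% of cases, and at 113 peaks the same held for A-485 replicate 4 and DMSO replicate 2. Whether the inputs or the libraries were exchanged was not tested. Both libraries labelled A-485 had fewer filtered peaks (25946 and 26513) than both labelled DMSO (33889 and 112108). Such counts depend on depth and on the input called against, so they cannot decide this. Counts of H3K27ac loss and narrowing are given with and without replicate 4. The shares by distance from the TSS, the mean levels of all 4 libraries and the read-count fit hold both replicates. Among markers, the epithelial genes EPCAM, KRT18 and CDH1 carried H3K4me3 in all 12 libraries and KRT8 in none, the blood genes PTPRC, CD3E and CD14 in none, NKX2-1 of the lung lineage in all 12 and NAPSA, SFTPB and SFTPC in none, and of the fibroblast genes COL1A1 in all 12 but DCN and LUM in none. The DPPA2 and DPPA4 promoters carried it in all 12.

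Promoter sequence was first inspected for motifs of the factors known for this pathway. Of the 51 genes, 45 had an entry in the RefSeq promoter table (GRCh38.p14, 250 bases before to 50 after the start), with the entry nearest the canonical TSS taken. CDC6, CDT1, GINS1, GINS2, GINS3, LIG1, MCM2, MCM3, MCM6, MCM7, ORC3, POLA2, POLE, POLE2, POLE4, RFC3 and TIPIN, 17 genes or 37.8%, held at least 1 of the E2F letters TTTCCCGC, TTTGGCGC, TTTCGCGC or TTTGCCGC on either strand, against 4.57% of 15343 promoters. The CCAAT box was present in 25 (55.6%, against 36.6%), and the CHR letters TTTGAA or TTCGAA in 4 (8.89%, against 1991 of 15343), in DBF4, MCM6, RRM1 and TOP2A. GC content was no different at the median, 63.7% in both the 45 and all 15343 promoters. The 30 bases around the E2F match nearest the start are shown for the helicase genes that had one and for the polymerase epsilon catalytic gene POLE, with the match in capitals and the strand of the gene.
MCM2: cgtgaaccactTTTCGCGCgaaacctggtt
MCM3: agttcggaagtTTTCGCGCcggggtggagt
MCM6: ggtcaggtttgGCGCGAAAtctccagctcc
MCM7: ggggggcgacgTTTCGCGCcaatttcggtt
POLE: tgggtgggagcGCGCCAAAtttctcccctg

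These lie at chr3:127598402-127598431 (+), chr6:52284728-52284757 (-), chr2:135876511-135876540 (-), chr7:100101388-100101417 (-) and chr12:132687342-132687371 (-). MCM6 held 4 matches, in overlapping pairs on opposite strands, and MCM2, MCM3 and MCM7 held 2 each, overlapping in MCM2. In MCM7 the last base of the match was the first of a CCAAT box. A match describes the letters in the window and was not tested as a site.

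H3K4me3 marked 50 of the 51 promoters (98.0%) in each of the 12 libraries, against 69.9 to 71.1% of all promoters. The count of 50 held at every peak filter tried. The one exception was RPA3, the smallest RPA subunit, whose canonical TSS at position 7718607 of chromosome 7 had no peak of H3K4me3, H3K27ac or H2AK119ub. Within the RPA3 gene, all 12 libraries instead had an H3K4me3 peak over 5 other annotated RPA3 starts between positions 7640026 and 7640972, such as the one from 7639101 to 7642200 with 755 reads in shDPPA2 H2O replicate 1. All 4 H3K27ac libraries also had peaks there, with 166 reads in DMSO replicate 2, so RPA3 was unmarked at the start chosen, not along the gene. Its window was kept in every count of 51.

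The level of H3K4me3, in reads per kb of window per 1000000 reads in peaks, ran from 10.4 to 33.8 among the 50 marked promoters in H2O (means of 6 libraries) with a median of 18.1, close to the 16.4 of all 13761 promoters that H3K4me3 marked in every library. The highest levels over all 12 libraries were those of MCM7 (32.8 ± 2.39, SD, n = 12), ORC2 (32.5 ± 4.27), MCM4 (32.3 ± 2.75), PRIM2 (28.9 ± 4.40) and FEN1 (27.9 ± 3.26). The SDs of the first 3 overlapped, so no order among them is drawn. After RPA3, the lowest were MCM10 (10.5 ± 0.673), GINS2 (10.7 ± 0.525), RFC5 (11.1 ± 0.613), POLE2 (11.3 ± 0.793) and GINS3 (11.7 ± 0.682), with POLE4 (11.7 ± 0.898) at the same level. Helicase genes thus stood at both ends of the range, with MCM2 (12.1 ± 0.613), MCM6 (15.7 ± 1.5) and MCM5 (16.3 ± 1.39) far below MCM4 and MCM7.

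Levels differed with the neighbourhood of the gene. Another protein-coding TSS lay in the window of 15 of the 51 genes (29.4%, against 14.9% of all 20007), and 14 of these were divergent pairs (27.5%, against 9.29%). The divergent partners, by distance upstream, were C9orf43 of POLE3 (72 bp), RPA1's SMYD4 (103 bp), DBF4's SLC25A40 (133 bp), WDHD1's SOCS4 (137 bp), ORC3's RARS2 (148 bp), ORC1's PRPF38A (179 bp), POLE's PXMP2 (245 bp), MCM7's AP4M1 (246 bp), FEN1's TMEM258 (312 bp), LIG1's ZSWIM9 (336 bp), ORC4's MBD5 (354 bp), ORC6's VPS35 (481 bp), CDC45's UFD1 (727 bp) and MCM4's PRKDC (805 bp). POLA2 had a start of an unnamed gene on its own strand 34 bp upstream. Shared windows had a median H3K4me3 level of 22.2 (17.3 to 33.8) against 15.9 (10.4 to 33.4) in the 35 other marked windows. Their H3K4me3 peaks reached 1703 bp upstream of the TSS at the median, against 1007 bp, but 1489 bp against 1445 bp downstream. The windows of a divergent pair hold the marks of both genes, and these cannot be told apart.

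**Figure D1:**
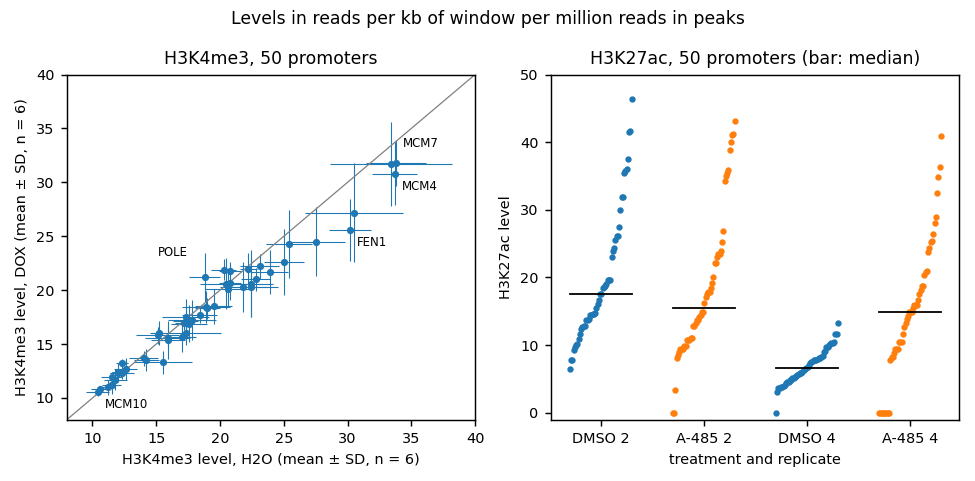
Left, H3K4me3 level at the 50 marked replication promoters in H2O (x axis) and DOX (y axis), each point a gene with mean ± SD of 6 libraries and the line of equality; points lie along the line from MCM10 near 10.5 to MCM7 near 32.8. Right, H3K27ac level at the same promoters in each of the 4 parental libraries, sorted within a library, with the median as a bar; every value of the library labelled DMSO replicate 4 lies below the medians of the other 3, and promoters at 0 are most numerous in A-485 replicate 4. Levels are reads per kb of window per 1000000 reads in peaks.

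Knockdown left H3K4me3 at these promoters within a narrow band. Summed over merged peak regions and fitted with edgeR (quasi-likelihood, replicate number as a block, adjusted over 22060 regions), 50 regions of the 51 genes were tested and none passed an adjusted p under 0.05 with a log2 fold change of at least 0.5. The background was as sparse, with 0.0272% of regions called in shDPPA2, 0.0363% in shDPPA4, 0% in shDPPA2+4 and 0.521% for the mean over the 3 lines. At an unadjusted p under 0.05, 11, 3, 4 and 15 of the 50 member regions were counted in the same order, beside 3138, 2012, 2458 and 5924 of the 22060 regions, and DESeq2 called no member as well. Member changes for the mean over the 3 lines ran from -0.16 to 0.10 on the log2 scale with a median of -0.03, and 32 of 50 were below 0 against 48.8% of all regions. Without regard to fold, 4 member regions had an adjusted p under 0.05, all with less H3K4me3. This share was no larger than the 8.88% of all regions, and without the block or without replicate 2 no region of the 22060 or 22643 tested had such an adjusted p. These were the flap endonuclease gene FEN1 (log2 fold change -0.16 ± 0.04, SE, edgeR adjusted p = 0.0202), TIMELESS (-0.13 ± 0.03, 0.0288), ORC2 (-0.13 ± 0.03, 0.0307) and PRIM2 (-0.11 ± 0.03, 0.0309).

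FEN1 had H3K4me3 levels of 30.6, 28.0, 29.6, 32.2, 31.7 and 29.0 in H2O and of 28.5, 22.8, 29.4, 22.9, 25.9 and 24.0 in DOX, in the order shDPPA2, shDPPA4 and shDPPA2+4 with 2 replicates each. It was lower with DOX in 6 of 6 pairs, although the highest DOX value lay above 2 of the H2O values. FEN1 was picked by its adjusted p in the fit of these same libraries, so this direction is not separate support. How many of all promoters had a lower level in 6 of 6 pairs was not counted. By covered bases, FEN1 was lower in 2 pairs and higher in 4. MCM7, the highest promoter, had 34.6, 30.9, 36.2, 36.5, 32.9 and 31.6 in H2O against 32.8, 28.0, 34.3, 31.1, 32.4 and 31.9 in DOX and the groups overlapped. No member differed between lines at the threshold in any of the 3 pairwise contrasts, in which 2, 0 and 1 of 22060 regions were called.

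**Figure D2:**
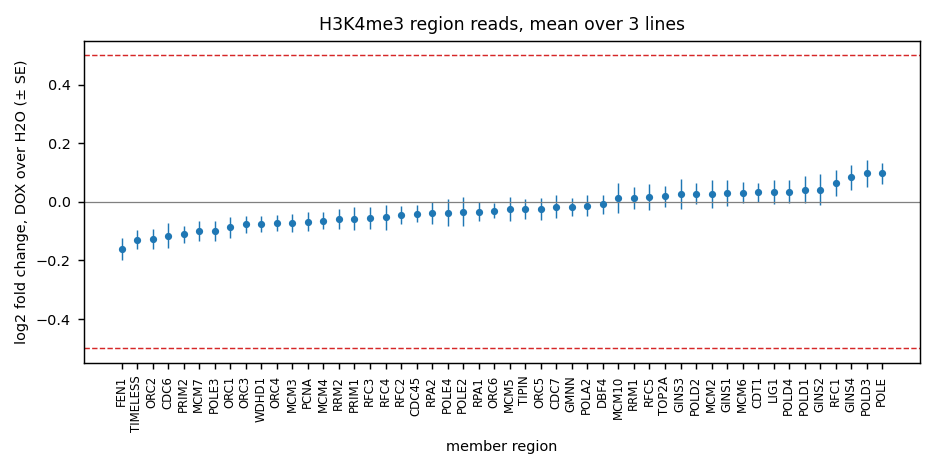
Log2 fold change of H3K4me3 reads, DOX over H2O, mean over 3 lines (y axis, ± SE) for the 50 member regions sorted along the x axis. All lie between -0.16 (FEN1) and 0.10 (POLE), well inside the dashed lines at ± 0.5.

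The width of H3K4me3 was also compared, as bases covered in the window in 6 pairs of line and replicate number. The replication gene GINS1, which encodes a GINS subunit, had more covered bases with DOX in 6 of 6 pairs (2000, 1900, 2200, 2000, 2000 and 2100 bp in H2O against 2200, 2273, 2300, 2100, 2373 and 2173 bp, a mean difference of 203 bp). No other member rose or fell in all 6. Over all promoters with any difference, 2.87% were higher in 6 of 6. The exact two-sided sign-flip permutation p was 0.0312, the smallest that 6 pairs can give, and 0.750 after adjustment over 13083 promoters.

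The mark of PRC2 was not detected at these promoters. None of the 51 promoters was marked by H3K27me3 in any of 18 libraries, in which 4.22 to 17.9% of all promoters were, or by SUZ12 in DMSO, where 12.2% were. The largest overlap was 213 bp in the window of ORC5, in the H2O replicate 1 library of each line, below the 300 bp needed. Among 58 other genes of replication and S phase, fixed as a list, 2 (CCNA2 and FAM111A) carried H3K27me3, in 1 library each.

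H2AK119ub, by contrast, was found at many of the 51 promoters in the water-treated knockdown lines, whereas parental libraries marked 7 to 9 of them. In H2O, 22 to 34 of the 51 were marked per library (56.5% ± 9.06, SD, n = 6). Unmarked in all 12 knockdown libraries were 6, namely RFC1, RFC3, RFC4, GINS1, GINS3 and RPA3, a count not made over all promoters. The other H3K4me3-only promoters, those with H3K4me3 in both H2O libraries of a line and H3K27me3 in neither, were marked at 63.5% ± 7.26, and all promoters at 51.7% ± 4.86. The signal was arranged around the start. In H2O it covered 13.1% of members 150 bp upstream of the TSS, 38.6% at 650 bp downstream and 26.1% at 650 bp upstream (means of 6 libraries), so the start itself lay in a dip, whereas H3K4me3 covered 98.0% at all but the upstream of these points (94.8%).

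**Figure D3:**
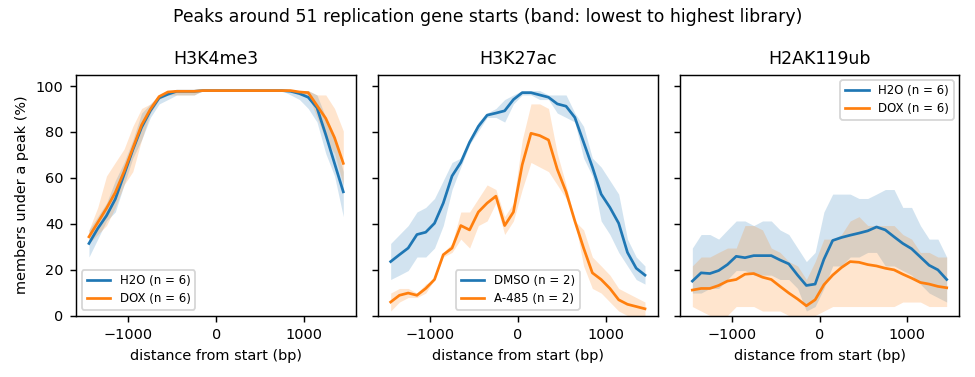
Share of the 51 promoters under a peak (y axis, %) by distance from the TSS in gene direction (x axis, bp, bins of 100 bp), for H3K4me3, H3K27ac and H2AK119ub, with the mean over libraries as a line and the lowest to highest library as a band. H2AK119ub dips at the start in both treatments, and H3K27ac narrows with A-485 from 86.3% to 41.2% at 650 bp downstream.

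The mark was unevenly spread over the roles. The polymerase delta genes were marked in 22 of 24 gene-by-library observations in H2O, polymerase epsilon genes in 18 of 24, the helicase genes MCM2 to MCM7 in 26 of 36 and the licensing factors in 11 of 18. The clamp and its loaders, in contrast, were marked in 8 of 36, the fork factors in 4 of 18 and the origin recognition complex in 17 of 36, with ORC6 holding 6 of these. Genes of a complex and libraries of a line share their source, and these counts are descriptions without a test.

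Marked in all 12 knockdown libraries were CDT1, GINS2, POLD4 and POLE, and in 11 of 12 RRM2 and MCM4. The share of all promoters marked in as many libraries was not counted. CDT1, which loads the helicase, had a cover of 2412 ± 604 bp in H2O and 2062 ± 692 bp in DOX (SD, n = 6), with 600 to 1200 bp in the 4 parental libraries. POLD4, the small subunit of polymerase delta, had 2443 ± 451 bp and 1901 ± 673 bp, GINS2 2160 ± 432 bp and 1417 ± 665 bp, and POLE 1583 ± 488 bp and 1050 ± 532 bp. None of the 4 had less in all 6 pairs, and the DOX and H2O libraries of each overlapped. In parental cells, only 7 to 9 of the 51 promoters were marked per library, with CDT1, POLD4, POLE and RRM2 in 4 of 4 libraries, and GINS2, MCM4 and the primase gene PRIM1 in 3 of 4.

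Their sequence upstream of the RefSeq start is shown for the 4 promoters marked throughout, limited to the longest run outside annotated exons, in gene direction, with E2F letters and CCAAT boxes in capitals. The runs lie at chr16:88803539-88803788 (+), chr16:85688955-85689204 (-), chr11:67353664-67353796 (-) and chr12:132687377-132687586 (-) of GRCh38.p14.
CDT1: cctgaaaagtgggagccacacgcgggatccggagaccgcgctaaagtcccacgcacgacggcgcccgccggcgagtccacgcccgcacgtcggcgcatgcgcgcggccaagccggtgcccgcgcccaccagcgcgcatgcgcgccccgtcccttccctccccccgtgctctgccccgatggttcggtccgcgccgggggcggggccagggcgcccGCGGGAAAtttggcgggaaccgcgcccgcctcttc
GINS2: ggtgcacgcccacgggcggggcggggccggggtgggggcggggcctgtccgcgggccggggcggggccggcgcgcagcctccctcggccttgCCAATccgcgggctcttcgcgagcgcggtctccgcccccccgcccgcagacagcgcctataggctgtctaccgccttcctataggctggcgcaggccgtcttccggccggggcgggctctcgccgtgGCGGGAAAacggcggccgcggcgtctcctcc
POLD4: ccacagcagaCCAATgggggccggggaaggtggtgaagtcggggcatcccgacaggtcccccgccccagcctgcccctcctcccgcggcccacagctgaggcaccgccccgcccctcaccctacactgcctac
POLE: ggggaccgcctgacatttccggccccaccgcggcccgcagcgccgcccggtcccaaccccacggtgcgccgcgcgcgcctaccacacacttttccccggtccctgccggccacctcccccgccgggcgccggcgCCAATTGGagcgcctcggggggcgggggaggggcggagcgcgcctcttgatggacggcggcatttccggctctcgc

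All 4 are rich in G and C, at 74.3% (CDT1), 78.3% (GINS2), 69.7% (POLD4) and 73.7% (POLE) of the 300-base entry, above the median of the 45 entries. CDT1 and GINS2 held 1 E2F match each, starting 35 and 31 bases upstream of the start.

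With DOX, fewer of the promoters carried H2AK119ub. The number marked fell from 30 to 26 and from 29 to 7 in shDPPA2, from 33 to 23 and from 22 to 8 in shDPPA4, and from 34 to 32 and from 25 to 15 in shDPPA2+4, for replicates 1 and 3. The share was lower in 6 of 6 pairs and at the mean dropped by 20.3 percentage points. In replicate 1 it dropped by 10.5 points and in replicate 3 it dropped by 30.1 points. The other H3K4me3-only promoters fell by 15.2 points (5 of 6 pairs), in replicate 1 alone they fell by 4.97 and in replicate 3 they fell by 25.4, and all promoters fell by 8.13. The direction thus held in replicate 1 alone, but most of the difference came with the DOX libraries of replicate 3, which stood apart as described above, and their part in the result was not tested. Per gene, 31 of 51 were marked in fewer DOX than H2O libraries, 4 in more and 16 in equal numbers. The same count was not made over all promoters, whose share also fell, so it is not read as particular to these genes.

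**Figure D4:**
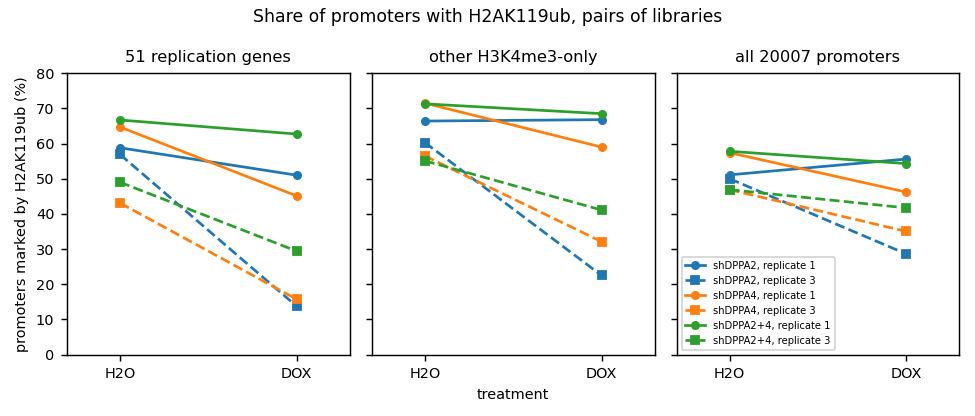
Share of promoters marked by H2AK119ub (y axis, %) in H2O and DOX, with a line for each pair of libraries (colour, line; circles and solid, replicate 1; squares and dashed, replicate 3), for the 51 replication genes, the other H3K4me3-only promoters and all 20007 promoters. All 6 lines fall for the replication genes, from between 43.1 and 66.7% to between 13.7 and 62.7%, and the lines of shDPPA2 and shDPPA4 in replicate 3 fall the most.

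A promoter was called lost when both H2O libraries of a line and neither DOX library marked it. In shDPPA2, 6 of the 21 members marked in both H2O libraries were lost, ORC1, RFC2, MCM7, POLE3, POLD3 and PRIM1, where 6.34% of all eligible promoters were. In shDPPA4, 6 of 19 were lost, RPA2, MCM7, POLA2, POLD3, RPA1 and CDC6, against 11.0%. In shDPPA2+4, 3 of 23 were lost, PRIM2, DBF4 and ORC5, against 5.08%. The member shares stood above these backgrounds, at 28.6% in shDPPA2 and 31.6% in shDPPA4, but the difference was not tested. The backgrounds took promoters with and without H3K27me3, and losses at H3K4me3-only promoters were not counted apart. The member counts rest on few genes. With the 1500 bp minimum they were 0, 3 and 1 (4.72 and 17.8% of all eligible promoters in shDPPA2 and shDPPA4). With all deposited peaks they were 3, 2 and 0 (1.82 and 5.08% in the same 2 lines). With a log2 fold above 2, 4 of 8 members were lost in shDPPA2 and 2 of 5 in shDPPA4, against 31.2 and 33.1%. Leaving out single libraries moved most of the counts. Without the H2O library of replicate 1 the counts were 11 of 29, 7 of 22 and 5 of 25 (9.55, 13.4 and 7.19% of all promoters), and without that of replicate 3 they were 12 of 30, 14 of 33 and 5 of 34 (12.8, 20.5 and 12.7%). Without the DOX library of replicate 1 they were 15 of 21, 13 of 19 and 11 of 23, where the share of all promoters rose as well, to 48.3, 34.2 and 22.7%. Without the DOX library of replicate 3 they were 6, 7 and 4 (6.71, 17.1 and 8.88%). Gains were 0 of 13, 0 of 15 and 1 of 15, against 3.32%, 0.887% and 1.98% of all promoters, the one being MCM10.

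MCM7 and POLD3 were lost in 2 lines each. MCM7, a helicase subunit with its window at chr7:100099897-100102897 (hg38), had 2200 and 1100 bp under H2AK119ub peaks in H2O and 0 and 0 in DOX in shDPPA2, 3001 and 1000 against 0 and 0 in shDPPA4, and 2601 and 504 against 1797 and 0 in shDPPA2+4. Every DOX library was below its own H2O pair, though the DOX value of 1797 bp exceeded 3 of the H2O values. MCM7 was the only member with less in 6 of 6 pairs, and at the mean its cover fell by 1435 bp, where 2.53% of 15350 promoters were lower in all 6. Without the shDPPA2 pair of replicate 1 there were 5 such members (14.3% of all promoters). Without the shDPPA2+4 pair of replicate 1 there were 3 (3.95%). With replicate 1 alone there were 4 (7.62%) and with replicate 3 alone 11 (29.3%), MCM7 among them in each of these settings. With other peak sets or windows MCM7 was not among them. The only such member was ORC1 with all deposited peaks and POLD1 with a log2 fold above 2. Its exact two-sided sign-flip permutation p was 0.0312, the smallest possible, and 0.664 after adjustment. No promoter at all passed the adjusted threshold, although 402 had an unadjusted p under 0.05, and no member rose in 6 of 6 pairs where 0.0912% of promoters did.

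POLD3, an accessory subunit of polymerase delta, had 1400 and 1100 bp in H2O in shDPPA2 and 2200 and 900 bp in shDPPA4, and 0 in all 4 matching DOX libraries. In shDPPA2+4 it ran the other way in replicate 1, from 0 to 1400 bp, and was at 0 in replicate 3 in both treatments. Neither gene met the rule in the double line, and the difference between lines was not tested. DBF4, the regulatory subunit of the CDC7 kinase, was lost only under the rule for shDPPA2+4 (2300 and 700 bp to 0 and 0), while in the single lines it kept 1500 and 800 bp in the DOX libraries of replicate 1. MCM10, which helps to activate the helicase, went from 0 and 0 to 758 and 600 bp in shDPPA2+4, and was marked in 5 of 6 DOX libraries but 2 of 6 in H2O.

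Of the other lost promoters, all but PRIM2 and ORC5 were marked in at least 1 DOX library of another line. In the order H2O replicates 1 and 3 and DOX replicates 1 and 3, the origin binding subunit ORC1 had 1078, 700, 0 and 0 bp in shDPPA2, and the clamp loader RFC2 had 302, 800, 0 and 0 bp. The histone-fold subunit POLE3 had 600, 600, 0 and 0 bp in shDPPA2, and the primase catalytic subunit PRIM1 had 800, 1023, 0 and 0 bp. These 4 were all narrower than the MCM7 cover in that line's replicate 1, and ORC1, RFC2, POLE3 and PRIM1 were marked again in DOX replicate 1 of shDPPA2+4, at 900, 802, 1000 and 2801 bp.

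In shDPPA4, RPA2 had 2601, 2175, 0 and 0 bp, POLA2, the accessory subunit of polymerase alpha, 2100, 1200, 0 and 0 bp, RPA1 2700, 1200, 0 and 0 bp, and the helicase loader CDC6 1479, 500, 0 and 0 bp. In DOX replicate 1 of shDPPA2+4 these 4 had 1975, 2100, 1600 and 1000 bp, against the 1526, 2701, 2100 and 1479 bp of its H2O pair. In shDPPA2+4, the primase subunit PRIM2 had 400, 371, 0 and 0 bp and ORC5 had 600, 900, 0 and 0 bp. Neither was marked in any DOX library of the 3 lines.

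**Figure D5:**
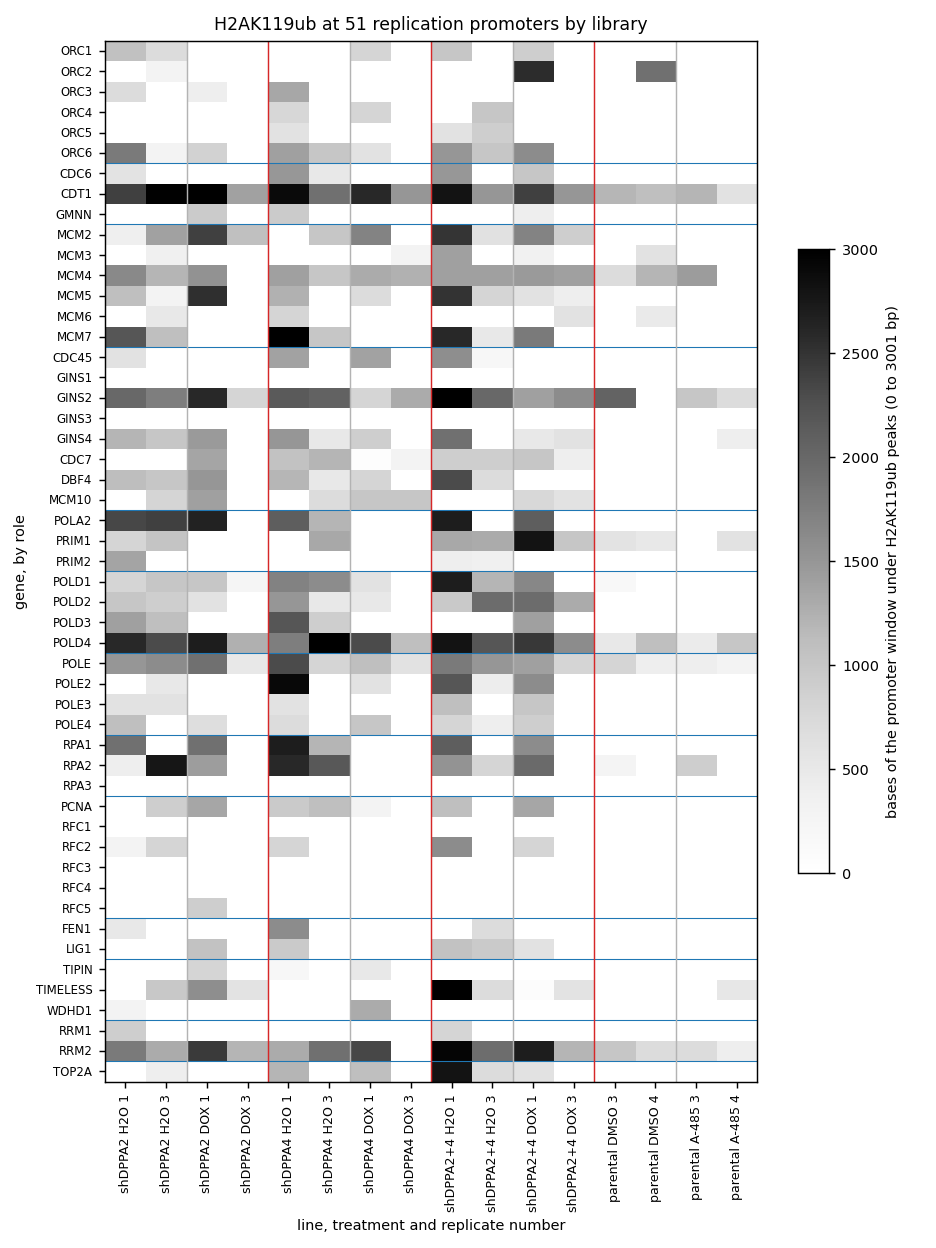
Bases of each promoter window under H2AK119ub peaks (grey scale, 0 to 3001 bp) for the 51 genes by role (rows) in the 12 knockdown and 4 parental libraries (columns). CDT1, GINS2, POLD4 and POLE are grey across all 12 knockdown columns, RFC1, RFC3, RFC4, GINS1, GINS3 and RPA3 are white in all of them, and the DOX replicate 3 columns are mostly white.

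By role, the DOX libraries of replicate 3 were the emptiest. In these libraries, no gene of the origin recognition complex, RPA or the clamp and its loaders was marked (0 of 18, 0 of 9 and 0 of 18 observations). Nor were FEN1 and LIG1 (0 of 6) or TOP2A (0 of 3). In DOX replicate 1 these groups had 8, 4, 5, 2 and 2. Of all promoters, 28.6, 35.0 and 41.7% were marked in DOX replicate 3 of shDPPA2, shDPPA4 and shDPPA2+4, against 55.6, 46.2 and 54.3% in DOX replicate 1. Differences between roles were not tested. In all, 16 members were marked in any of the 3 DOX libraries of replicate 3, and 4, the genes marked throughout, in all of them. Neither count was made over all promoters.

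Read counts allowed few tests of this mark. Only 4 member regions had an H2AK119ub peak in every library, those of POLD4, POLE, GINS2 and CDT1, and none was called for the mean over the 3 lines (0% of 6161 regions, with 1327 at an unadjusted p under 0.05 and none of the 4 among them). Their log2 fold changes were -0.31 ± 0.18 (SE), -0.50 ± 0.26, -0.43 ± 0.33 and -0.06 ± 0.13, with edgeR adjusted p-values of 0.326, 0.277, 0.447 and 0.777. All 4 were below 0 where 51.4% of all regions were. Without replicate 1, so that only replicate 3 was compared, 2 of the 4 were called lower. Of the 9083 regions in that fit, 1017 were called lower and 1334 higher. No member differed between lines. Of the 58 genes of the pathway list, all carried H3K4me3 in both H2O libraries of each line. Among them 5 of 34, 4 of 32 and 4 of 33 eligible promoters lost H2AK119ub in shDPPA2, shDPPA4 and shDPPA2+4, against the 6.34, 11.0 and 5.08% of all promoters. LIN9, CCNE2 and TYMS, 3 of the 58, were lower in 6 of 6 pairs, against 2.53% of the 15350 promoters with a difference in any pair.

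In parental cells, 7 and 9 of the 51 promoters carried H2AK119ub with DMSO and 7 and 8 with A-485 (replicates 3 and 4), against 38.2, 19.3, 32.6 and 22.5% of all promoters in the same order. The member windows took 0.00923% of the peak reads of DMSO replicate 3 but 0.0496% of those of DMSO replicate 4, so the DMSO libraries were unlike each other. Leaving out DMSO replicate 3, the counts were 9 with DMSO and 7 and 8 with A-485.

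H3K27ac was nearly as common as H3K4me3, with 50 and 49 of the 51 promoters marked in DMSO (replicates 2 and 4) and 48 and 41 in A-485, against 58.9, 73.6, 49.4 and 38.8% of all promoters. In DMSO replicate 2 the member levels ran from 6.40 to 46.4 with a median of 17.6, against 14.6 for all 11778 marked promoters. In that library the highest were MCM7 (46.4), MCM4 (41.6), RRM2 (41.5), FEN1 (37.5) and TOP2A (36.0), and the lowest after RPA3 were GINS2 (6.40), MCM10 and ORC5 (7.75 each), RFC5 (9.35) and RFC1 (9.72). By the mean of all 4 libraries, which pools both treatments and replicates of unlike level, the highest were MCM7 (32.0 ± 15.5, SD), MCM4 (30.5 ± 14.7), RRM2 (28.9 ± 16.0), ORC2 (28.8 ± 12) and TIMELESS (28.2 ± 13.6), none separable from the next. The lowest after RPA3 were GINS2 (2.63 ± 3.18), MCM10 (4.95 ± 3.86), RFC4 (5.73 ± 4.97), GINS3 (5.98 ± 4.88) and POLD3 (6.21 ± 4.95). MCM7 and MCM4 were among the 5 highest for both marks in either order, whereas ORC2 was 13th in DMSO replicate 2. MCM10 and GINS2 were among the 5 lowest marked genes in each. MCM3 counted as unmarked in DMSO replicate 4 because its peak there, of 85 reads, had a log2 fold over input of 0.89.

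H3K27ac was narrower in the libraries labelled A-485, at these genes and elsewhere. Of 49 members marked in both DMSO libraries, 44 had fewer covered bases with A-485 in both pairs and none had more in both, where 90.9% of all eligible promoters had fewer. The median cover of those 49 went from 1700 to 1000 bp in replicate 2 and from 2100 to 900 bp in replicate 4. In replicate 2 alone 49 of 50 were narrower (96.4% of all eligible promoters) and in replicate 4 alone 45 of 49 (95.4%). With the treatment labels of replicate 4 exchanged, an alternative chosen after seeing the data, 4 of 41 were narrower in both pairs, against 6.54%. Reversing a pair in which 45 of 49 were narrower lowers this count by itself. The count over both pairs thus rests on those labels, but the exchange cannot decide which labels are right. With equal numbers of top peaks in each library, 40 of 47 were narrower in both pairs, against 89.1% of all eligible promoters. The A-485 libraries had 780375 and 603895 reads in peaks against 2709073 and 5647079 with DMSO, and the part of depth in this was not tested. The share of members under H3K27ac was lower with A-485 on both sides of the TSS. It was 39.2% against 66.7% for 650 bp upstream and 79.4% against 97.1% for 150 bp downstream. These are means of replicates 2 and 4 as labelled, and were not computed without replicate 4.

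Outright loss was rare. Under the rule used above, only GINS2 lost H3K27ac (1 of 49, against 12.4% of eligible promoters), going from 900 and 2100 bp to 0 and 0. GINS2 had the lowest level of H3K27ac with DMSO in replicate 2 among the 50 marked genes, and was among the 4 genes with H2AK119ub in all 12 knockdown libraries. In replicate 2 alone, MCM10 was lost too (2 of 50, against 16.3%), and in replicate 4 alone RFC1, RFC2, RFC4, POLD3, GINS3, RPA1, LIG1 and POLD1 joined GINS2 (9 of 49, against 47.5%). With the labels of replicate 4 exchanged none was lost, against 0.0392% of promoters, which cannot decide on the labels either. MCM7 and MCM4 stayed wide, at 2100 and 2000 bp and at 2560 and 1760 bp with A-485. In read counts, 39 member regions had a peak in all 4 libraries, and none was called (0% of 8967 regions, with 662 at an unadjusted p under 0.05 and no member among them, and 15 regions but no member called by DESeq2). The median log2 fold change of the 39 was 0.02, relative to a scaling that centres the tested regions, and a shift shared by every region would go unnoticed. This fit had 1 residual degree of freedom.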

How the data were processed

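ChIP-Rx-seq libraries of NCI-H661 cells were analysed from 51 peak lists, and 8 input libraries without a list were not used here. The authors trimmed reads with Trim Galore 0.6.6, aligned them with BWA 0.7.13 to hg38, used SAMtools 1.9, Picard 2.6.0 and deepTools 3.5.0, and called peaks with EPIC2 in each replicate against genomic input (versions per the labels). Per the file headers, each deposited peak holds a ChIP count and an input count, a log2 fold over input, a p-value with its FDR, and a score, and the score was not used here. Mouse spike-in reads were not used here, so a change common to all regions is not measured. The SUZ12 list has the columns of the same caller, although the study's methods name another for that target.

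The peak filter was that of the study (log2 fold over 1, FDR below 0.05), with no blacklist. Promoters came from GENCODE 44. Bases under peaks were summed in the 3001 bp window, and reads of a peak were apportioned by length. Peaks were merged across libraries, and regions called in each library with a mean of 10 reads or more were fitted in edgeR 4.0.16 (R 4.3.3; TMM, quasi-likelihood test, Benjamini-Hochberg adjustment over all regions), with replicate number as a block. Numbers pair the samples because the study processed replicates as complete batches, and deviations from group means correlated at 0.342 to 0.524 (H3K4me3), 0.237 to 0.704 (H2AK119ub) and 0.407 (H3K27ac). Covered bases were compared by an exact two-sided sign-flip permutation test over 6 pairs. The procedure was tested on simulated data. DESeq2 1.42.0, other scalings, filters, windows and left-out libraries were alternatives.

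The members and lists were chosen with earlier results of these data known. Genes named with values were those that lost or gained H2AK119ub, differed in 6 of 6 pairs, were marked in all or none of the 12 knockdown libraries, lacked H3K4me3, overlapped H3K27me3, shared a window, or were the 5 highest or lowest by level. FEN1, TIMELESS, ORC2, PRIM2, the other MCM genes and RRM2 were named with values after these were seen where this rule did not take them.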

Additional observations from a re-analysis of the deposited data

How the results depend on the processing

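The 50 promoters with H3K4me3 and the absence of H3K4me3 calls held under every alternative run. Counts of H2AK119ub losses did not. With a minimum of 1500 bp they were 0, 3 and 1 in shDPPA2, shDPPA4 and shDPPA2+4, and with all deposited peaks 3, 2 and 0. With a log2 fold above 2 the shDPPA4 count was 2 of 5 (33.1% of all eligible promoters). Leaving out replicates or single libraries gave 6 to 22, 7 to 15 and 4 to 13. Without replicate 1, 22 of 29 members were lost in shDPPA2, where 51.1% of all eligible promoters were. In shDPPA4 they were 15 of 22 (36.6%) without replicate 1 and 15 of 33 (27.3%) without replicate 3. The share of all promoters thus rose with the member counts, which are not read as particular to these genes. H3K27ac losses were 17 of 31 with a minimum of 1500 bp (53.0% of all promoters), 0 with equal numbers of top peaks (8.51%), and 1 to 9 with libraries left out (up to 47.5%). Members with narrower H3K27ac in both pairs (44) became 4 with the treatment labels of replicate 4 exchanged, chosen after seeing the data. Reversing that pair lowers the count by itself. Members with less H2AK119ub in 6 of 6 pairs numbered 0 with a minimum of 1500 bp (0.950% of all promoters). They numbered 3 (POLD4, ORC6 and POLD1) within 500 bp of the TSS (1.53%). With equal numbers of top peaks there were 2 (POLE and POLD1, 2.82%). There was 1 with all deposited peaks (ORC1, 2.62%) and 1 with a log2 fold above 2 (POLD1, 1.86%). With libraries left out there were 1 to 11 (2.89 to 29.3%). The identity of MCM7 thus depended on the window and the peak set. The cause was not tested.

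The H2AK119ub fit called 0 to 2 of its member regions with libraries left out. The H3K27ac fit called 33 with called length as an offset, where 7953 of 8967 regions were called up with it. With no replicate block, 0 member regions were called for each of the 3 marks, as with the block. Without replicate 2 or 4, H3K27ac had 1 library a group and no residual degree of freedom, so no fit was run, and the fits without single H3K27ac libraries had no block.

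The mean number of members with H2AK119ub in H2O (28.8) became 10.2 with a minimum of 1500 bp, 34.3 with all deposited peaks, 12 with a log2 fold above 2 and 23.2 with equal numbers of top peaks. In DOX (18.5) it became 5.33 and 8 with the 1500 bp minimum and the log2 fold above 2. In parental cells (7.75) it became 0.500, 9, 4.5 and 4 under the 4 settings. For H3K27ac the DMSO mean (49.5) became 36.5, 45.0 and 48.5 with the 1500 bp minimum, the log2 fold above 2 and the top peaks, and the A-485 mean (44.5) became 11.0 and 32.5 with the first and the second. For H3K27me3, counting any overlap of 1 bp gave 0.222 members per library.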
